A study of Bos taurus with 16 samples.

Results

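Homeobox genes encode transcription factors that bind DNA through a conserved domain, the homeodomain, and many of them fix the identity of body regions and gut segments in the embryo. The papillae of the rumen wall are made of a stratified squamous epithelium over a connective tissue core with vessels. In mice several homeobox factors mark either the epithelium or the mesenchyme of the foregut and stomach. The genes described are IRX3 and IRX5 (Iroquois family), PITX1 (paired-like family), BARX1 and BARX2 (Bar-related family) and NKX2-3 (NK family). They are homeobox genes known from the gut wall or its epithelium, and they were chosen with earlier results of these data known. Counts over them are therefore descriptions and not tests. Of these 6 genes, 5 had exon rows among the 12010 genes of the deposited file, and BARX1 was not analysed here. The 5 genes had 18 exon rows among 113576 in all, where a row is a stretch of read coverage that holds at least 1 annotated exon.

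RNA was taken from papillae, the projections of the rumen wall, of 16 crossbred steers aged 344 ± 48 days, with 1 library per animal. The groups, with 4 animals each, are written HGHI (high gain, high intake), HGLI (high gain, low intake), LGHI (low gain, high intake) and LGLI (low gain, low intake). No treatment was given: animals were selected by the quadrant of weight gain and feed intake in which they fell. All groups had free access to the same ration, with 57.35% corn, 30% distillers grains and 8% alfalfa. Each library comes from a separate animal, so the errors below are between animals, and a papilla holds epithelium together with its stroma. In such tissue, fewer cells of a type and less RNA per cell cannot be told apart.

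A level is given as the average number of reads over each base of a row (coverage per base), times a factor of the authors that brings each library to a total of 591.1 to 595.9 Mb. Depth was estimated at 11.9 to 21.2 M reads. The gene's level is that of its best covered exon row. Levels of epithelial genes ranged widely, with means of 2097 for KRT6A, 392 for KRT14 and 190.0 for KRT5. Others were low, such as KRT4 (0.586), KRT10 (1.04), LAMB3 (3.32) and CNFN (5.44). Coverage of first exons was thin in 5 libraries: HGHI replicate 4, HGLI replicates 2, 3 and 4, and LGLI replicate 3. Their mean log2 ratio of first exon to other exon coverage over 1153 genes ran from -4.814 to -3.693, against -2.75 to -1.3 in the other 11 libraries. The 5 thin libraries came from 4 high-gain animals and 1 low-gain animal, so the gain differences are also given without them. Mitochondrial reads held 18.3 ± 6.61% of the coverage at high gain and 12.6 ± 4.39% at low gain, and exons held 59.8 ± 5.0% at high gain and 65.3 ± 4.24% at low gain (SD, n = 8 each). The part of these library measures in the gain differences was not tested.

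The 5 genes spanned a wide range of coverage per base. PITX1 averaged 33.8, above 93.4% of the 9445 genes tested. IRX3 averaged 8.72, IRX5 4.01, BARX2 2.88 and NKX2-3 0.649, and the last was above 8.09% of genes. All neighbours in this order differed across the 16 libraries by an exact paired permutation test (two-sided, Benjamini-Hochberg over 4 pairs). PITX1 exceeded IRX3 in 12 of 16 libraries, by a mean log2 ratio of 1.46 ± 1.15 (SD; exact permutation, adjusted p = 0.00189). The reverse order was seen only in libraries low in first exons, and without these libraries PITX1 exceeded IRX3 in 11 of 11, by 2.18 ± 0.385. IRX3 exceeded IRX5 in 16 of 16, by 1.10 ± 0.340 (exact permutation, adjusted p = 0.000122). IRX5 exceeded BARX2 in 13 of 16, by 1.38 ± 1.85 (exact permutation, adjusted p = 0.0124). The order of IRX5 and BARX2 did not pass without the 5 libraries low in first exons (exact permutation, adjusted p = 0.193) or with the mean over all exon rows (0.0667). BARX2 exceeded NKX2-3 in 12 of 16, by 1.14 ± 1.73 (exact permutation, adjusted p = 0.0160).

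**Figure D1:**
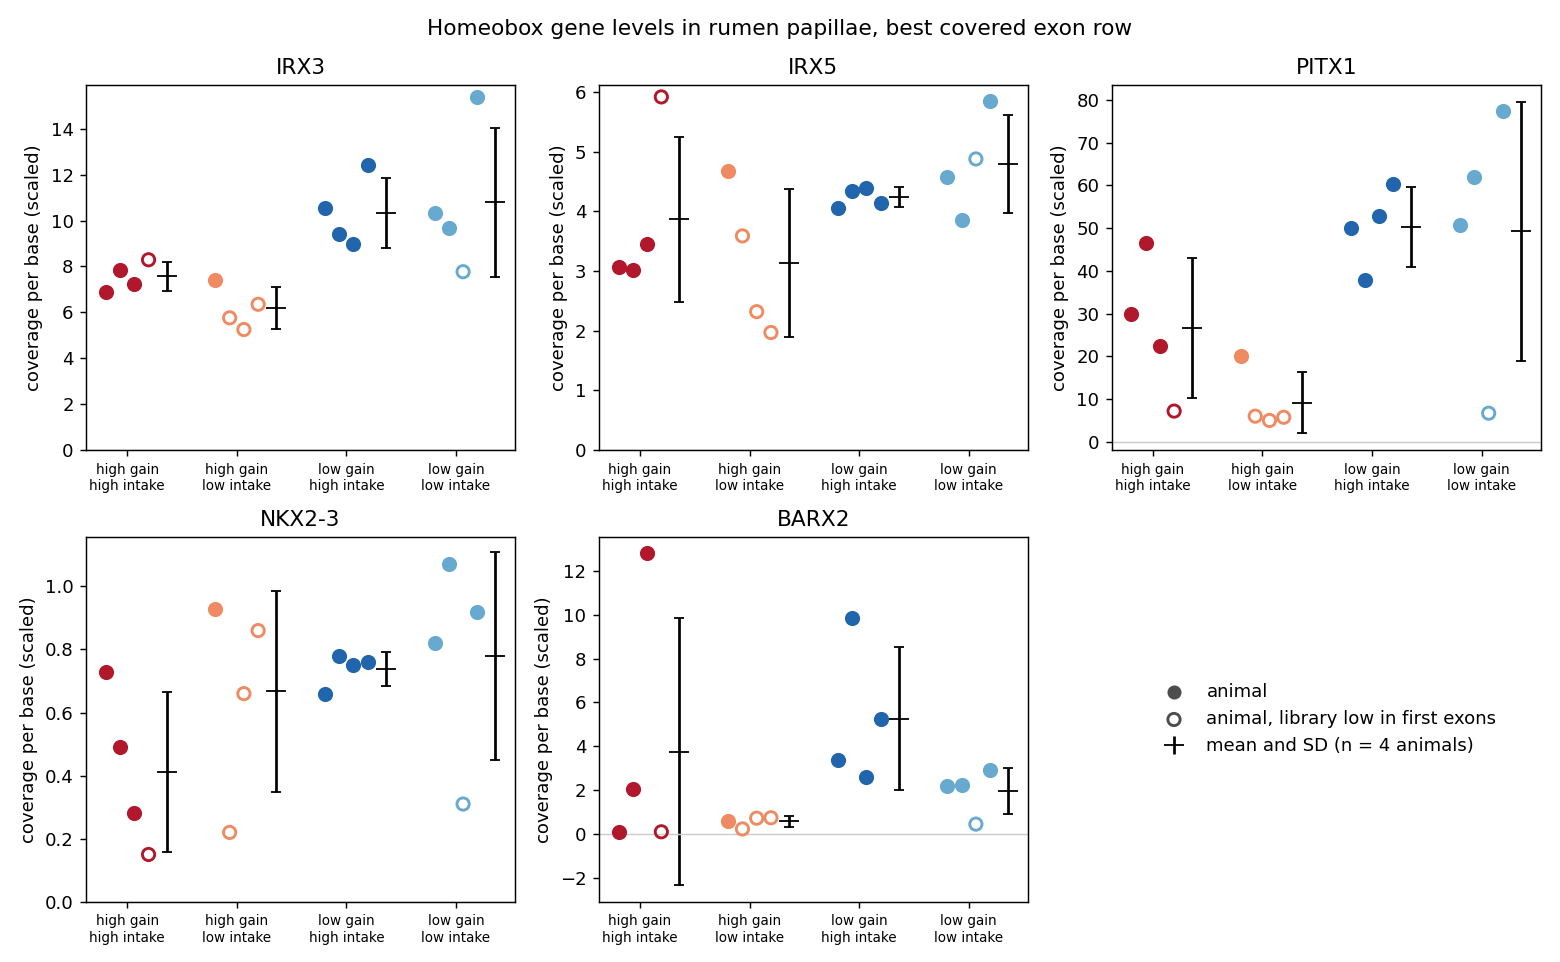
Coverage per base of the best covered exon row of each gene (vertical axis, scaled by the authors) in each of 16 animals by group, with the mean and SD of 4 animals. Open circles are the 5 libraries low in first exons. In PITX1 these lie between 4.98 and 7.17, below the 20.0 to 77.39 of the other 11.

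IRX3 encodes an Iroquois factor that patterns several organs in the mouse embryo, and in humans and mice it is a known long-range target of regulatory sequence within an intron of FTO. Its best covered row spans exons 2 to 4 and the short introns between them at chr18:22691738-22693696 of the bovine build UMD3.1 (1959 bases), with some adjoining intergenic sequence. In HGHI the levels of replicates 1 to 4 were 6.89, 7.83, 7.24 and 8.29, and in HGLI 7.4, 5.76, 5.25 and 6.35. In LGHI they were 10.54, 9.40, 8.97 and 12.40, and in LGLI 10.33, 9.68, 7.77 and 15.40. All 8 high-gain animals lay below the median of the low-gain animals. The groups overlapped through a single low-gain animal, LGLI replicate 3, one of the libraries low in first exons. High-gain animals averaged 6.88 ± 1.03 for IRX3 and low-gain animals 10.6 ± 2.37 (SD, n = 8 each).

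The log2 difference of IRX3 between high and low gain was -0.60 (SE 0.15), the gene ranking 16th of 9445 by unadjusted p (0.00157). It did not pass the adjustment over all genes (limma, Benjamini-Hochberg adjusted p = 0.790, threshold 0.05), and 0.0% of the 9445 genes did. Leaving out LGLI replicate 3 leaves thin libraries at high gain alone. The IRX3 difference was then -0.67 and just under the threshold (limma, adjusted p = 0.05, rounded). Over the alternative settings its adjusted p ran from 0.05 to 1.0. Among the 11 libraries not low in first exons, IRX3 lay between 6.89 and 7.83 in the 4 high-gain animals and between 8.97 and 15.4 in the 7 low-gain animals. These did not overlap, as held in the lower direction for 0.921% of all genes. The fitted difference there was -0.56 (limma, adjusted p = 0.215).

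The best covered row of IRX3 was also among the least variable between animals of a group. Its log2 SD within groups was 0.258, below that of the median gene at 0.653, and 3.66% of genes had a smaller one. IRX5 stood at 0.377 (13.8%), NKX2-3 at 0.641 (48.5%), PITX1 at 1.10 (71.8%) and BARX2 at 1.64 (85.6%). These rows are unlike, since the best rows of PITX1 and BARX2 hold a first exon and the other best rows do not. The row of IRX3 that holds its first exon ran from 0.03 to 5.41 within LGLI. The estimated reads in the best row of IRX3 were 311.7 to 838.0 per library, while those of NKX2-3 were 2.8 to 19.6 and of BARX2 0.8 to 119.3. Single low values of the last pair of genes therefore rest on few reads.

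A second row of IRX3 spans exons 1 and 2 at chr18:22693757-22695066 (1310 bases). It stood at 1.52, 2.23, 1.73 and 0.26 in HGHI and at 1.17, 0.12, 0.20 and 0.26 in HGLI. In LGHI it stood at 3.54, 3.43, 3.35 and 2.83, and in LGLI at 3.25, 4.22, 0.03 and 5.41. The libraries low in first exons held the 5 lowest values (0.03 to 0.26), a gap below all other libraries that 18.2% of exon rows showed. Among the other 11, high gain was at 1.17 to 2.23 and low gain at 2.83 to 5.41, with no overlap (1.61% of all exon rows did so in the lower direction).

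IRX5 is the neighbour of IRX3 in the Iroquois cluster and in mice acts in part redundantly with it, for example in the heart and limb. The exon rows of both genes lay 613984 bases apart on chromosome 18. The best covered row of IRX5 spans parts of exons 2 and 3 at chr18:23311088-23312827 (1740 bases). It was at 3.07, 3.02, 3.45 and 5.92 in HGHI, and at 4.68, 3.59, 2.32 and 1.97 in HGLI. It was at 4.05, 4.35, 4.40 and 4.14 in LGHI, and at 4.58, 3.86, 4.88 and 5.85 in LGLI. High and low gain overlapped, with 6 of 8 high-gain animals below the low-gain median. The means were 3.5 ± 1.28 at high gain and 4.51 ± 0.626 at low gain (SD, n = 8 each), and the log2 difference was -0.42 (SE 0.21, limma, adjusted p = 0.847). Without the 5 thin libraries it was -0.20 (SE 0.17, limma, adjusted p = 0.688), and with first-exon coverage as a model term -0.55 (SE 0.23, limma, adjusted p = 0.123).

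The row of IRX5 exon 1 at chr18:23309050-23309800 (751 bases) separated the animals more widely. It was at 0.24, 0.64, 0.31 and 0.10 in HGHI and at 0.23, 0.04, 0.04 and 0.09 in HGLI. It was at 1.34, 1.02, 1.43 and 1.39 in LGHI and at 1.53, 1.32, 0.00 and 2.40 in LGLI. Every high-gain library was below every low-gain library other than LGLI replicate 3, where the row was listed at 0. The 5 lowest values (0.00 to 0.10) were those of the 5 libraries low in first exons, a gap that 18.2% of exon rows showed. Among the other 11, high gain was at 0.23 to 0.64 and low gain at 1.02 to 2.40, with no overlap (1.61% of all exon rows in the lower direction). The log2 difference was -2.04 (SE 0.57, limma, adjusted p = 0.284 over 70992 exon rows). A row of part of exon 2 at chr18:23309851-23311030 (1180 bases) was at 0.17 to 0.39 in the 5 libraries low in first exons and at 0.62 to 1.62 in the other 11, again without overlap, as for 18.2% of exon rows. Its log2 difference for gain was -0.79 (SE 0.43, limma, adjusted p = 0.582).

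PITX1 encodes a factor required in mice for hindlimb identity and pituitary development, which is also made in oral epithelium. Its single row spans exons 1 to 3, the introns and flanking sequence at chr7:48062838-48069471 (6634 bases), so that its level mixes exon and intron coverage. PITX1 stood at 29.90, 46.61, 22.47 and 7.17 in HGHI, and at 20.00, 5.98, 4.98 and 5.72 in HGLI. It stood at 49.97, 37.78, 52.73 and 60.31 in LGHI, and at 50.81, 62.03, 6.67 and 77.39 in LGLI. The 5 lowest values were those of the 5 libraries low in first exons (4.98 to 7.17), and the other 11 ran from 20.0 to 77.39. A gap of this kind in the lower direction was seen in 19.5% of all genes.

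High-gain animals averaged 17.9 ± 15 for PITX1 and low-gain animals 49.7 ± 20.8 (SD, n = 8 each). All 8 high-gain values were below the low-gain median. The log2 difference was -1.70 (SE 0.52, unadjusted p = 0.00542, limma, adjusted p = 0.847). It passed without LGLI replicate 3, which leaves thin libraries at high gain alone, at -2.10 (limma, adjusted p = 0.0321), where 0.741% of all genes passed. Over the alternative settings its adjusted p ran from 0.0321 to 1.0. Without the 5 libraries low in first exons, PITX1 was at 29.7 ± 12 in 4 high-gain animals and 55.9 ± 12.4 in 7 low-gain animals, with overlapping ranges. The log2 difference there was -1.14 (SE 0.24, limma, adjusted p = 0.0622 over genes, of which 0.614% passed). With the first-exon index as a term in the model it was -0.48 (limma, adjusted p = 0.147). The estimate thus ran from -1.70 to -0.48 with the treatment of first exons.

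BARX2 encodes a Bar-related factor that in mice is known from muscle differentiation and from epithelia such as the hair follicle. Its 6 rows lay at chr29:33162300-33256129, and the annotation places exon 1 at 2 sites 77745 bases apart. The best covered row was exon 1 at the second site, chr29:33240588-33240918 (331 bases). It was at 0.11, 2.03, 12.80 and 0.10 in HGHI and at 0.59, 0.23, 0.72 and 0.74 in HGLI. It was at 3.36, 9.84, 2.60 and 5.26 in LGHI and at 2.17, 2.24, 0.45 and 2.90 in LGLI. The highest value of all belonged to a high-gain animal, while the other 7 high-gain animals were below the low-gain median.

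The means of BARX2 were 2.17 ± 4.34 at high gain and 3.60 ± 2.86 at low gain (SD, n = 8 each), and the log2 difference was -1.82 (SE 0.77, limma, adjusted p = 0.847). Without the 5 thin libraries it was -1.63 (SE 0.95, limma, adjusted p = 0.550), and with first-exon coverage as a model term -0.81 (SE 0.77, limma, adjusted p = 0.493). Exon 3 at chr29:33254688-33256129 (1442 bases) gave the same picture of single high animals. It stood at 0.20, 2.07, 10.98 and 0.22 in HGHI and at 0.81, 0.90, 1.04 and 0.95 in HGLI. It stood at 2.79, 8.70, 1.77 and 4.65 in LGHI and at 1.64, 2.03, 0.52 and 1.98 in LGLI. The same animal, HGHI replicate 3, was highest in exon 1 at its second site, exon 2 and exon 3, at 12.80, 11.49 and 10.98. The gain difference of exon 3 was -1.09 (SE 0.65, unadjusted p = 0.114, limma, adjusted p = 0.615). That of exon 2 was -0.66 (SE 0.86, unadjusted p = 0.457, limma, adjusted p = 0.833). The best row at the first site of exon 1 gave -1.45 (SE 0.73, unadjusted p = 0.0640, limma, adjusted p = 0.539). At the first site of exon 1 the best row (347 bases) was at 0.00 to 2.80 at high gain and 0.00 to 2.94 at low gain, and 2 shorter rows there were too thinly covered to be tested.

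NKX2-3 encodes an NK factor of the visceral mesoderm, needed in mice for spleen and gut-associated lymphoid tissue. Its best covered row lies in exon 2 at chr26:20403030-20403772 (743 bases). It was at 0.73, 0.49, 0.28 and 0.15 in HGHI and at 0.93, 0.22, 0.66 and 0.86 in HGLI. It was at 0.66, 0.78, 0.75 and 0.76 in LGHI and at 0.82, 1.07, 0.31 and 0.92 in LGLI. These values overlapped throughout, with means of 0.540 ± 0.30 at high gain and 0.759 ± 0.220 at low gain (SD, n = 8 each). The log2 difference was -0.54 (SE 0.34, limma, adjusted p = 0.847), and it was -0.28 without the 5 thin libraries (limma, adjusted p = 0.781), 0.07 with first-exon coverage as a model term and -0.00 after quantile normalization. Its exon 1 row and a second exon 2 row (390 bases) were each listed at 0 in 5 libraries and held a median of 2.4 and 1.95 estimated reads. For gain their log2 differences were -1.17 (SE 0.63, limma, adjusted p = 0.575) and -1.72 (SE 0.51, limma, adjusted p = 0.308), and 3 further rows were too thinly covered to be tested.

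Set side by side for gain, all 5 genes had an estimate below 0 at high gain, as did 53.9% of the 9445 genes tested. An unadjusted p under 0.05 in the lower direction was reached by 3 of 5 (IRX3, PITX1 and BARX2, the last in its exon 1 row only) and by 4.33% of all genes. Without the 5 thin libraries it was reached by 2 of 5 (IRX3 and PITX1) and by 10.1% of all genes. With first-exon coverage as a model term it was reached by 3 of 5 (IRX3, IRX5 and PITX1) and by 9.99% of all genes. With all 16 libraries and no added term, the median of the 5 log2 differences was -0.60, beside -0.04 over all genes. In the same fit no gene of the 9445 passed the adjusted threshold for gain, and 501 had an unadjusted p under 0.05 (limma, 92 higher and 409 lower at high gain). This lean to lower values depended on the setting, with 460 higher and 555 lower after quantile normalization and 1899 higher and 944 lower with first-exon coverage as a model term, where 870 genes passed as higher and 147 as lower.

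Of the 18 exon rows, 13 reached a coverage of 0.5 in at least 4 libraries and were tested. All 13 had an estimate below 0 at high gain, as did 62.5% of 70992 exon rows. Of the 13, 6 had an unadjusted p under 0.05 in the lower direction, against 9.08% of all rows, and rows of 1 gene share their animals and partly their transcripts. None passed the adjustment (limma, adjusted p from 0.279 to 0.833). The shared direction depended on the setting. With first-exon coverage as a model term 9 of the 13 were below 0, as were 34058 of the 70992 rows. After quantile normalization 12 of the 13 were below 0, as were 28005 of the 70992 rows. Without the 5 libraries low in first exons, 3 rows passed and were lower at high gain, where 1.72% of all rows passed. These were IRX5 exon 1 (log2 difference -2.0, limma, adjusted p = 0.0237), IRX3 exons 1 and 2 (-1.29, 0.0260) and the PITX1 row (-1.14, 0.0418). Leaving out only LGLI replicate 3 leaves thin libraries at high gain alone. In that fit 5 of the 13 rows passed, all lower at high gain, where 10.6% of all rows passed. They were IRX5 exon 1 (-2.57, limma, adjusted p = 0.00164), the PITX1 row (-2.10, 0.0058), IRX3 exons 1 and 2 (-2.40, 0.00637), the second exon 2 row of NKX2-3 (-2.08, 0.00945) and the best row of IRX3 (-0.67, 0.0194).

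In those 11 libraries the index of first-exon coverage itself was lower at high gain, at -2.38 ± 0.323 (n = 4), against -1.60 ± 0.246 at low gain (n = 7). With the index as a term over all 16 libraries, the log2 differences were -0.81 for IRX5 exon 1 (limma, adjusted p = 0.252), -0.07 for IRX3 exons 1 and 2 (0.931) and -0.48 for the PITX1 row (0.268). The best row of IRX3, which holds no first exon, was at -0.47 in the same model (limma, adjusted p = 0.180 over rows). The part of first-exon coverage in the gain differences was not tested beyond these fits.

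**Figure D2:**
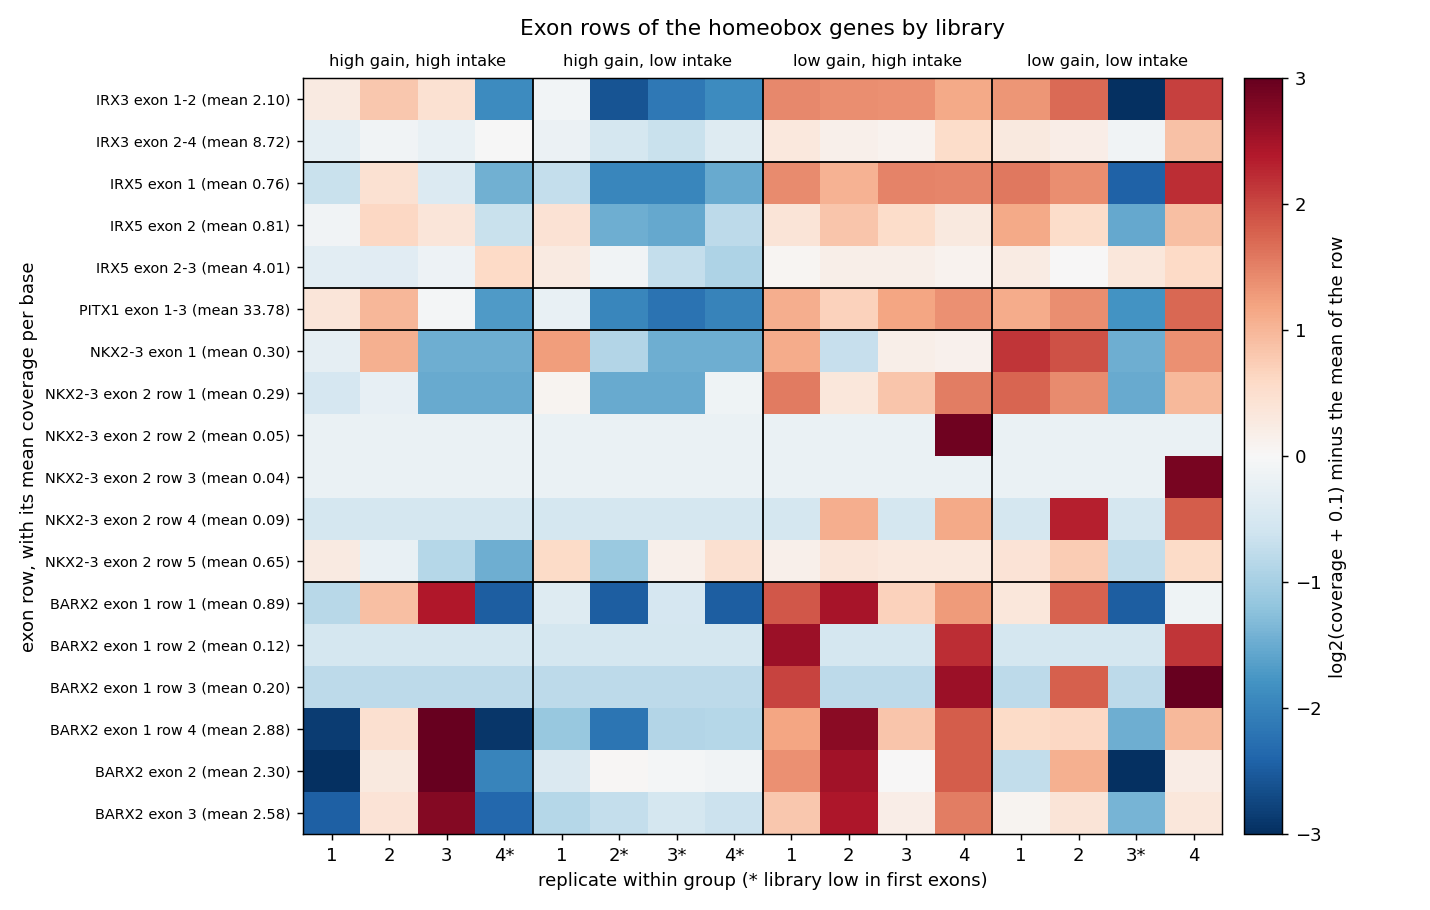
Log2(coverage + 0.1) minus the row mean (color) for the 18 exon rows of the 5 genes (vertical, with mean coverage) in the 16 libraries (horizontal, by group and replicate). An asterisk marks libraries low in first exons, which are blue in rows with a first exon of IRX3, IRX5 and PITX1, while the best rows of IRX3 and IRX5 vary least.

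The coverage ratio of first-exon row to best other row showed how far each gene followed the library property. For IRX3 the log2 ratio was -4.70 ± 0.724 in the 5 libraries low in first exons and -1.75 ± 0.406 in the other 11 (SD), with no overlap. Of the 1153 genes that define the first-exon index, 44.4% had no overlap either. For IRX5 it was -4.57 ± 0.830 in these 5 and -2.10 ± 0.883 in the other 11, and for NKX2-3 -2.13 ± 0.956 in these 5 and -0.945 ± 0.914 in the other 11. For BARX2, whose best row is exon 1 and is set against exon 3, it was -0.650 ± 0.563 in these 5 and 0.133 ± 0.336 in the other 11. The ratios of IRX5, NKX2-3 and BARX2 overlapped between the 5 and the 11 libraries. PITX1 has 1 row and gives no such ratio.

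Markers of other cell types also had lower estimates in the same comparison. All 8 of 8 smooth muscle markers had lower estimates at high gain (median log2 difference -1.47), and their summed level was 8.96 to 47.76 at high gain and 36.91 to 117.8 at low gain. CNN1, DES and LMOD1 were listed at 0 in at least 1 high-gain library, and DES also in at least 1 low-gain library. Endothelial markers were lower in 8 of 8 estimates (median -0.54; sum 10.45 to 24.34 at high gain, 22.23 to 33.85 at low gain), with VWF and CLDN5 at 0 in some libraries of either side. Fibroblast markers had lower estimates in 8 of 8 (median -0.41; sum 150.1 to 355.0 at high gain, 163.2 to 943.2 at low gain) and pericyte markers in 4 of 4 (-0.66; sum 5.05 to 15.47 at high gain, 10.02 to 36.52 at low gain). COL1A1 was at 0 in at least 1 high-gain library. The highest fibroblast and pericyte sums at low gain were those of its single thin library, LGLI replicate 3. Without the 5 thin libraries the fibroblast sum was 150.1 to 269.8 at high gain and 163.2 to 339.3 at low gain. The pericyte sum was then 5.05 to 12.29 at high gain and 10.02 to 16.53 at low gain.

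Markers of the basal epithelium had 5 of 8 lower estimates (median -0.47; sum 247.0 to 1311 at high gain, 196.9 to 1268 at low gain), and those of the upper epithelial layers 5 of 8 (-0.19; sum 1748 to 3892 at high gain, 1081 to 3045 at low gain). Leukocyte markers were divided, with 2 of 4 lower (0.08; sum 9.63 to 31.59 at high gain, 10.84 to 24.82 at low gain), and both tested nerve and glia markers had lower estimates (-0.06; sum 5.75 to 23.75 at high gain, 4.73 to 18.91 at low gain). ITGB4, LAMB3 and KRT4 of the epithelium, CD79A, MS4A1 and ITGAM of leukocytes and SOX10 of glia were at 0 in some libraries. Without the 5 thin libraries the medians were -1.42 for smooth muscle (8 of 8 lower), -0.42 for endothelium (5 of 8), -0.25 for fibroblasts (7 of 8) and -0.61 for pericytes (4 of 4). With first-exon coverage as a model term they were -0.28 (5 of 8 lower), -0.48 (8 of 8), -0.88 (7 of 8) and -0.32 (3 of 4) in the same order. In that fit 6 fibroblast markers passed, all lower at high gain, beside 1017 of the 9445 genes. So did 1 smooth muscle, 1 pericyte, 1 basal and 2 upper-layer markers. The sign for the epithelium depended on the setting, with medians of -0.32 (basal) and 0.00 (upper layers) without the 5 libraries and 0.22 and 0.74 with the model term. The part of tissue makeup in the differences of IRX3, IRX5, PITX1, BARX2 and NKX2-3 was not tested.

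For intake none of the 5 genes passed (limma, adjusted p from 0.528 to 0.819), nor did any of the 9445 genes (0.0%), while 8.28% had an unadjusted p under 0.05. PITX1 had the largest estimate relative to its error, at 38.4 ± 17.7 with high intake and 29.2 ± 29.6 with low intake (log2 difference 0.98, SE 0.52, limma, adjusted p = 0.528). Of the 5 libraries low in first exons, 4 were of low intake, and without these 5 the log2 difference of PITX1 was 0.16. BARX2 averaged 4.51 ± 4.59 with high intake and 1.26 ± 1.01 with low intake (log2 difference 1.09, SE 0.77, limma, adjusted p = 0.528). IRX3 averaged 8.95 ± 1.83 with high intake and 8.49 ± 3.31 with low intake, a log2 difference of 0.13 (SE 0.15). IRX5 averaged 4.05 ± 0.933 with high intake and 3.97 ± 1.32 with low intake, a log2 difference of 0.08 (SE 0.21). NKX2-3 averaged 0.575 ± 0.243 with high intake and 0.724 ± 0.307 with low intake, and all 8 high-intake animals were below the low-intake median (log2 difference -0.28, SE 0.34, limma, adjusted p = 0.620). This NKX2-3 estimate was -0.58 without the 5 thin libraries (limma, adjusted p = 0.535), -0.62 with first-exon coverage as a model term (0.588) and -0.68 after quantile normalization (0.457). In all, 1 of the 5 estimates was below 0, as were 50.4% of all genes. The median of the 5 differences was 0.13, beside -0.01 over all genes.

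The gain difference was not shown to depend on intake for any of the 5 genes, with interaction estimates of 1.03 for PITX1, 0.47 for IRX5, 0.32 for IRX3, -0.62 for NKX2-3 and -0.74 for BARX2 (log2; limma, all adjusted p = 1.0). In this interaction test 0.519% of all genes had an unadjusted p under 0.05 and none passed.

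Animals that gained more on less feed were set against those that gained less on more feed, as HGLI minus LGHI (4 against 4). IRX3 averaged 6.19 ± 0.923 in HGLI and 10.3 ± 1.53 in LGHI, PITX1 9.17 ± 7.23 in HGLI and 50.2 ± 9.36 in LGHI, and BARX2 0.570 ± 0.236 in HGLI and 5.27 ± 3.25 in LGHI (SD, n = 4 each). None of the 3 overlapped between the groups, which held in the lower direction for 16.9% of all genes. IRX5 averaged 3.14 ± 1.24 in HGLI and 4.24 ± 0.167 in LGHI, and NKX2-3 0.668 ± 0.320 in HGLI and 0.738 ± 0.0532 in LGHI, both with overlap. The log2 differences were -2.68 for PITX1 (SE 0.73), -0.73 for IRX3 (SE 0.22) and -2.91 for BARX2 (SE 1.09), each with a limma adjusted p of 0.368, which was also the smallest of all genes. These 3 of 5 genes had an unadjusted p under 0.05 in the lower direction, as did 9.37% of all genes. This comparison uses animals that the gain comparison also uses, and 3 of the 4 animals of HGLI were low in first exons. Without the 5 thin libraries, which leaves 1 HGLI animal, the log2 differences were -1.30 for PITX1 (SE 0.38), -0.46 for IRX3 (SE 0.29) and -2.78 for BARX2 (SE 1.53), with limma adjusted p from 0.265 to 0.590. With first-exon coverage as a model term they were -0.79 for PITX1 (SE 0.31), -0.54 for IRX3 (SE 0.24) and -1.33 for BARX2 (SE 1.12), with limma adjusted p from 0.229 to 0.572. IRX5 was at 0.14 without these libraries and -0.69 with the model term, and NKX2-3 at 0.30 and 0.69. Among exon rows, those of IRX5 exon 1, IRX3 exons 1 and 2 and PITX1 passed once LGLI replicate 3 was left out of the shared error (limma, adjusted p = 0.0131, 0.0198 and 0.0175), as did 5.71% of all rows.

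**Figure D3:**
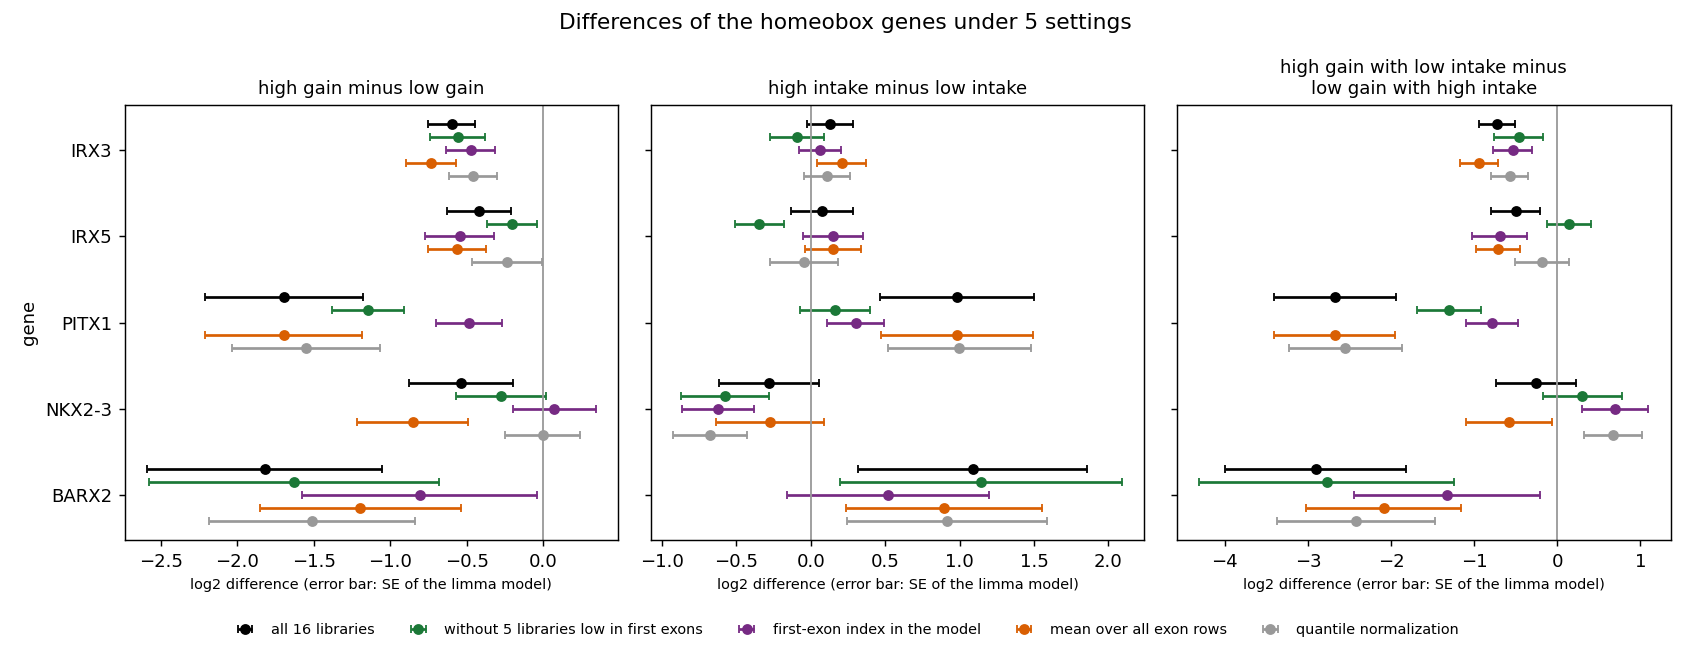
Log2 differences (horizontal axis) of the 5 genes for gain, intake and HGLI minus LGHI, with the SE of the limma model, under 5 settings given by color. The gain estimate of IRX3 stays between -0.74 and -0.46, while that of PITX1 lies between -1.70 and -0.48.

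Relations among the genes were computed over the 11 libraries not low in first exons, with p adjusted over 10 pairs. IRX3 divides these libraries by gain without overlap, so its 4 pairs are given only within the 7 low-gain animals. There Pearson's r of IRX3 was 0.74 with PITX1 (exact permutation p = 0.0581), 0.71 with IRX5 (0.0956), 0.167 with NKX2-3 (0.712) and -0.0475 with BARX2 (0.919). Spearman's rho was 0.464, 0.179, 0.143 and 0.143 in the same order (exact permutation p from 0.302 to 0.783). None passed after adjustment over these 4 pairs (exact permutation, smallest adjusted p = 0.191 for r and 0.783 for rho). The 4 high-gain animals are too few for a value. The 6 pairs without IRX3 gave r from -0.399 to 0.563 (permutation, smallest adjusted p = 0.257) and rho from -0.245 to 0.655 (smallest adjusted p = 0.17).

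The genes most like each, up to 3, by Spearman's rho over the same 11 libraries are given as a description. All values of a library share its depth and quality, and each rho was picked as among the highest of the 9445 genes tested. Their size was therefore not tested. For IRX3, which divides these libraries by gain without overlap, they included ASCL2 (0.927) and CHCHD10 (0.918), both over high-gain and low-gain animals together. For IRX5 they were CISD1 (0.918), NUDT19 (0.909) and C3H1orf43 (0.891). For PITX1 they were TRMT61A (0.98), TMEM160 (0.973) and ATG4B (0.973). For NKX2-3 they were MAP1B (0.964), ARV1 (0.927) and C14H8orf59 (0.918), and for BARX2 C7H5orf46 (0.973), FKBPL (0.964) and RUNDC1 (0.936). Over all 16 libraries, FKBPL alone of these was again among the top 3 of its gene.

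Of 204 other homeobox genes listed, 92 were in the file and 34 were tested. For gain, with all 16 libraries and no added term, 18 had a lower and 16 a higher estimate at high gain (median log2 difference -0.05), and none passed. An unadjusted p under 0.05 was reached by 3, all lower: HOXB7 of the HOX clusters (-0.71), HLX (-1.44), known in mice from gut mesenchyme, and PBX4 (-0.85). HOXB7 was at 0.366 ± 0.211 at high gain and 0.629 ± 0.229 at low gain, and HLX at 0.223 ± 0.185 at high gain and 0.845 ± 0.494 at low gain (SD, n = 8 each). The smallest p among higher estimates belonged to HESX1 (0.36). With first-exon coverage as a model term, 22 of the 34 had a lower and 12 a higher estimate (median -0.18). In that fit 4 of the 34 passed, as did 1017 of the 9445 genes.

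The best covered of these genes were MEIS1 (10.6) and CUX2 (10.4), and HOPX (8.43), HOXC5 (7.95), ADNP (7.20), HOXC4 (6.51) and PBX3 (5.23) were also among the highest, all in mean coverage per base. MEIS and PBX factors are known partners of HOX proteins on DNA. By mean level PITX1 stood above all 34, and IRX3 above all of them other than MEIS1 and CUX2. For intake, 24 of the 34 had a lower and 10 a higher estimate (median -0.22), and none passed. HOPX was higher with high intake at 9.85 ± 1.95, against 7.01 ± 2.29 with low intake (log2 difference 0.52, unadjusted p = 0.0107, limma, adjusted p = 0.528). PBX4 was the other higher one (0.89), and MEOX2 (-0.87) and POU2F3 (-0.47) had lower estimates at an unadjusted p under 0.05.

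**Figure D4:**
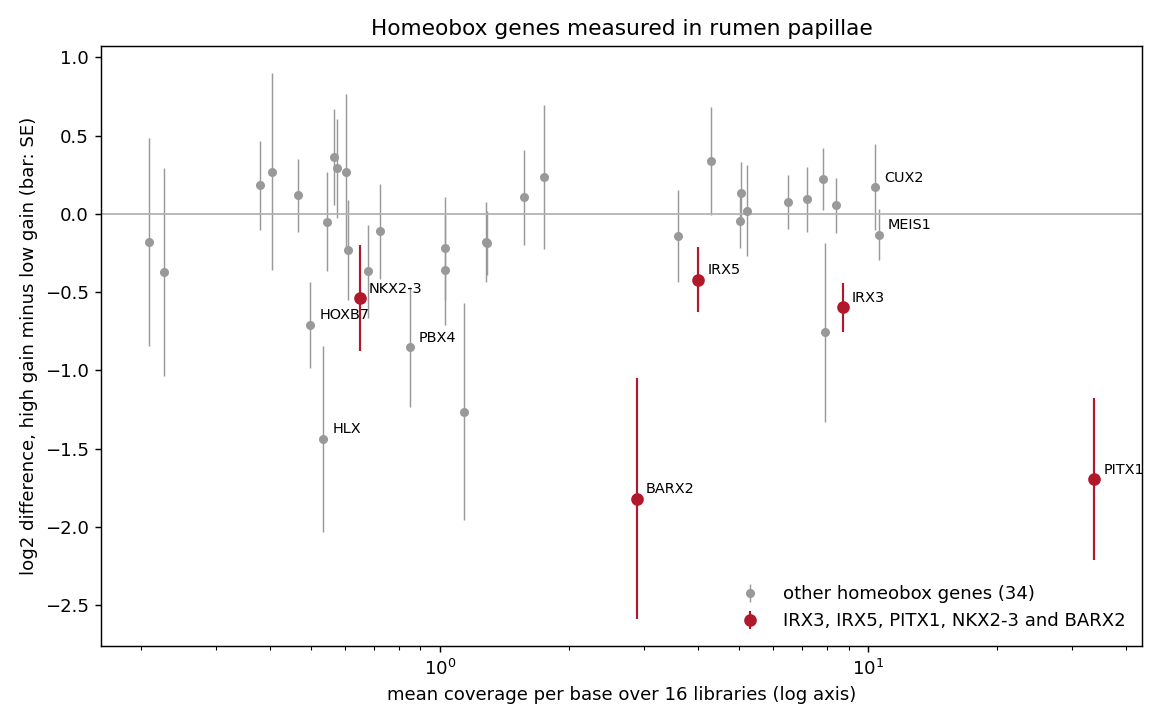
Mean coverage per base over 16 libraries (horizontal, log axis) and log2 difference of high minus low gain (vertical, bars are the SE) for 34 other homeobox genes (grey) and for IRX3, IRX5, PITX1, NKX2-3 and BARX2 (red). The 34 are divided around 0, and the red points all lie below it.

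A list of 29 genes that act beside homeobox factors in gut patterning had 16 in the file and 11 tested. SOX2 at 34.8 and TP63 at 33.6, transcription factors of stratified foregut epithelium, and SFRP1 at 30.8, a secreted WNT inhibitor, had a coverage per base close to that of PITX1. For gain, 6 of the 11 had lower estimates (median -0.14), and none passed. BMP7, a secreted BMP ligand, was at 0.405 ± 0.146 at high gain and 0.698 ± 0.261 at low gain (log2 difference -0.65, unadjusted p = 0.0207, limma, adjusted p = 0.847). BMP4 was at -0.52. For intake, 10 of the 11 had lower estimates (median -0.30), with TP63 at -0.51 and the BMP antagonist GREM1 at -0.74, neither past the threshold. Of the neighbours of the Iroquois cluster, FTO alone was tested, at 3.16 ± 1.18 at high gain and 3.67 ± 1.55 at low gain (log2 difference -0.16, SE 0.32).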

How the data were processed

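The deposited table holds 2351373 regions and 16 sample columns, which were matched to animals by the number in each title, with 0 left unmapped. Its values are a signal, which the authors deposited as mean coverage per base times 1 factor per library. This reading comes from the values, since value times length sums to nearly the same total in each library. Per the labels' protocols, polyadenylated RNA was read as single reads of 50 bases. TopHat2 2.08b and UMD3.1 are named per the submitters' processing notes. The coverage tool, the annotation release and the strand setting are, for this table, not given in the sources used here, so antisense reads cannot be told apart. Coverage is not counts, and reads per row are estimates from the value of 1 read.

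Exon rows were taken by gene symbol, and 553 rows that mix exons of different genes were dropped, 0 of them from the homeobox genes described. Genes (9445 of 12010) had to reach 0.5 in 4 or more libraries. Levels were fitted as log2(value + 0.1) with limma 3.58.1 in R 4.3.3 (trend and robust options, 4 group means), two-sided, with Benjamini-Hochberg adjustment over all genes or 70992 exon rows. This log scale understates changes of low genes. The fit was run on simulated data with independent noise for each gene. These data held no thin libraries, so the run does not bear on their effect. Permutation tests used scipy 1.17.1. Libraries low in first exons lie below the largest gap in the mean log2 ratio of first to other exons, over genes with at least 6 exons and a mean coverage of at least 5.

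The genes, the lists and the markers were chosen with earlier results of these data known. Named genes are those described, the 8 best covered other homeobox genes, those with the smallest p for gain and intake in each list, and the 3 genes most like each one described; PBX4 for gain and SOX2 and SFRP1 were added after their values were seen. Alternatives were another pseudocount (0.01 or 1), filter, summary, scaling or model, the first-exon index as a term, and libraries left out. Part of the genes chosen in this way is not reported here. No sequences are shown.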

Additional observations from a re-analysis of the deposited data

Results flagged for a closer look

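A gap test of the highest and lowest animal in each group of 4 (Dixon's critical value 0.829) was run on 20 groups, and 3 animals stood apart, where chance gives about 1 in 20 groups. IRX5 was at 5.92 in HGHI replicate 4, with the other 3 animals at 3.02 to 3.45. That library was low in first exons. PITX1 was at 20.0 in HGLI replicate 1, the only animal of its group not low in first exons, with the other 3 at 4.98 to 5.98. BARX2 was at 12.8 in HGHI replicate 3, with the other 3 at 0.10 to 2.03. Without that animal the gain difference of BARX2 was -2.43 (log2).

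Coverage beside the genes, outside annotated exons, was flagged at 2 places. An intergenic row at chr18:23306960-23307231 (272 bases), 1819 bases from IRX5 on the side of exon 1, had a mean of 1.44. It was listed at 0 in all 5 libraries low in first exons and at 0.59 to 4.84 in the other 11. An intergenic row at chr7:48069766-48075482 (5717 bases), 295 bases from PITX1 on the side of exon 1, had a mean of 10.9. It stood at 2.14 to 5.87 in these 5 libraries and at 8.72 to 19.48 in the other 11, and at 8.64 ± 4.26 at high gain and 13.2 ± 5.16 at low gain (SD, n = 8 each). No gene is assigned to either row.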

How the results depend on the processing

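No paired analysis was possible because animals carry no numbers that tie them across groups. Each log2 difference was recomputed under up to 26 alternatives, and for gain 125 of 128 values kept their direction and side of the threshold, while IRX3 and PITX1 passed without LGLI replicate 3 (given above). Of these alternatives, 16 leave out 1 library and share most of their data with the main fit. Few genes passed for gain under most settings, so this count says little about stability. Dropping these 5 thin libraries, those low in first exons, leaves 1 animal in HGLI, which is then assumed to vary like the others. Genes past the threshold for gain numbered 0, against 58 without these 5, 1017 with the first-exon index as a term (870 higher, 147 lower) and 0 to 70 with 1 library left out (70 without LGLI replicate 3). Exon rows numbered 0, against 1 after quantile normalization, 1224 without these 5 and 0 to 7537 with 1 library left out. For intake, 2 genes passed with the mean over all rows and 0 to 1 with 1 library left out, and 1 exon row passed with a pseudocount of 1 and 0 to 3 with 1 library left out. For HGLI minus LGHI, 2 genes and 83 rows passed without these 5, and 0 to 1 genes and 0 to 4057 rows with 1 library left out. The median of the genes was -1.15 for gain and -1.70 for the last comparison under the strict filter (at least 2 in 8 libraries), which NKX2-3 does not pass; with 1 library left out it ran from -0.70 to -0.51 and from -0.82 to -0.64. Quantile normalization moved the median of all genes to 0.18 for gain and -0.12 for intake.

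Signs turned as follows, and the cause was not tested. Without the 5 libraries, intake was -0.094 for IRX3 and -0.35 for IRX5, the interaction -0.40 for IRX5 and 0.47 for BARX2, and the last comparison 0.14 for IRX5 and 0.30 for NKX2-3. With the index as a term, NKX2-3 was 0.071 for gain and 0.69 for the last comparison. After quantile normalization, IRX5 was -0.048 for intake and NKX2-3 0.67 for the last comparison. With 1 library left out, intake ran from -0.033 to 0.18 for IRX5, the interaction from -1.95 to 0.054 for BARX2, and the last comparison from -0.44 to 0.12 for NKX2-3.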
